A study of Mus musculus with 12 samples.

Results

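The comparison described here set the end of the endothelial-to-haematopoietic path against its start in cells that received no doxycycline. It used 4 of the 12 libraries of the series, the 2 of hematopoietic progenitors (NoDox HP) and the 2 of hemogenic endothelium 1 (NoDox HE1), and was read across all genes. The members were the libraries carrying these 2 labels, chosen by label and not by any measured value. The 2 libraries of the intermediate population, hemogenic endothelium 2 (NoDox HE2), served to place each change along the path. The 4 HP and HE1 libraries with doxycycline (PlusDox) served to set the path without doxycycline against the path with it. HP, HE2 and HE1 without a prefix stand for the NoDox groups below.

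All groups came from mouse A2lox.cre embryonic stem cells that carry a doxycycline-inducible RUNX1-EVI1 gene, so the uninduced construct was also present in the NoDox cells. Per the labels, colonies were picked after selection and expanded, and the labels do not say whether the 2 biological replicates of a group came from 1 clone or from 2. FLK1-positive cells were isolated from embryoid bodies and grown for 1 day with VEGF, IL-6 and medium conditioned by D4T endothelial cells. They then grew for 18 hours more with 0 µg/ml doxycycline (NoDox) or 0.5 µg/ml (PlusDox) before sorting. No label describes the gates of the sort, and such cultures model early embryonic blood formation in a dish.

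During development the first definitive blood cells arise from hemogenic endothelium, vessel-lining cells that round up, loosen their junctions and switch on blood genes. RUNX1 is required for this switch, and its targets GFI1 and GFI1B are repressors that shut down the endothelial programme. SOX7, SOX17, SOX18 and NOTCH1 act in the endothelium, and prolonged activity of these SOX factors is known to hold back blood formation. FLK1, the VEGF receptor encoded by Kdr, marks the mesodermal and endothelial cells from which the path starts.

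Expression was read as FPKM, fragments scaled to the length of the transcript and to the mapped fragments of the library, 1 value per gene name and library. The FPKM summed to 556294 and 535402 in HP and to 484769 and 468326 in HE1, and 11461 to 11865 of 35976 names reached 1 FPKM in these 4 libraries. The files gave no read counts. Steps between low values gave depths of 0.898 and 0.710 of the median library in HP and 1.05 and 1.38 in HE1, so low genes were measured less finely in HP. Differences are log2(FPKM + 1) in HP minus HE1 with their SE, from a limma fit over all 12 libraries with Benjamini-Hochberg adjusted two-sided p-values, and genes near 0 FPKM are understated on this scale. Replicates correlated across the genes tested with r of 0.983 in HP and 0.983 in HE1, where genes are not independent replicates. In HP replicate 2 and HE1 replicate 1 the features Lars2, Mir6236 and LOC101056014 took 12.8% and 8.99% of the summed FPKM, against 0.481% in HP replicate 1 and 0.391% in HE1 replicate 2. HP and HE1 thus each held 1 library of each class, and the part of this class in the results was measured by a fit with a class term and by the difference within each class.

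The labelled cell types were checked against marker lists. Of 45 junction and receptor genes of endothelium, 43 reached 1 FPKM in at least 1 HE1 library, while only 13 were under 1 FPKM in both HP libraries. Among the 43 was the adherens junction gene Cdh5 (10.8 and 9.88 FPKM in HP, 298 and 438 FPKM in HE1). Of 35 pan-leukocyte genes in the files, 29 reached 1 FPKM in at least 1 HP library. Of the same 35, 21 were under 1 FPKM in both HE1 libraries. Both lists were thus detected in part in the other group, and detection alone separated the labels only in part. Ptprc, the gene of the leukocyte antigen CD45, stood at 5.16 and 7.98 FPKM in HP and was listed at 0 in both HE1 libraries. HE1 was not free of blood transcripts: the embryonic globin Hbb-bh1 already stood at 126 and 81.5 FPKM there. Of 16 macrophage genes, 5 were listed at 0 in both HP libraries and 11 in both HE1 libraries. Their summed FPKM was 12.7 and 19.5 in HP and 15.0 and 9.85 in HE1. Mrc1, which some endothelium shares, held most of the HE1 sum, with 14.3 and 8.69 FPKM in HE1 and 0.133 and 0.134 in HP. Among 23 lymphoid genes, 12 were at 0 in both HP and 11 in both HE1 libraries, and of 12 pluripotency genes only Klf4 passed the filter for testing. In bulk RNA fewer cells of a type and less RNA per cell cannot be told apart, and this holds for every value below.

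The path changed a large share of the transcriptome. Of 13316 genes tested, 5409 were called at an adjusted p below 0.05 (40.6%; limma), 2927 of them higher in HP (22.0%) and 2482 lower (18.6%). Without an adjustment 6496 genes had a p below 0.05. The calls lower in HP reached further: 636 fell by more than 2 on the log2 scale and 97 by more than 4, while 333 rose by more than 2 and 48 by more than 4. Among the called genes, 120 were under 1 FPKM in both HE1 libraries and at 5 FPKM or more in both HP libraries, and 163 showed the opposite. In all 5409 calls the 2 HP libraries lay on one side of the 2 HE1 libraries, which also held for 9863 tested genes (74.1%). The median tested gene differed by 0.14, and it stood at −0.003 after Lars2, Mir6236 and LOC101056014 were left out and the libraries rescaled. Of 11427 protein-coding genes tested, 2577 rose and 2195 fell, and of 574 long non-coding RNA genes 88 rose and 109 fell. A term for the library class raised the count of calls to 6800. No call of the full fit changed its sign in any of the 14 alternative fits, but only the alternative scalings of the libraries could have changed one. The other fits kept each gene's difference as it was, changed the pseudocount or left out a library. None of these can turn the sign of a gene whose HP libraries both lie on one side of the HE1 libraries.

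**Figure D1:**
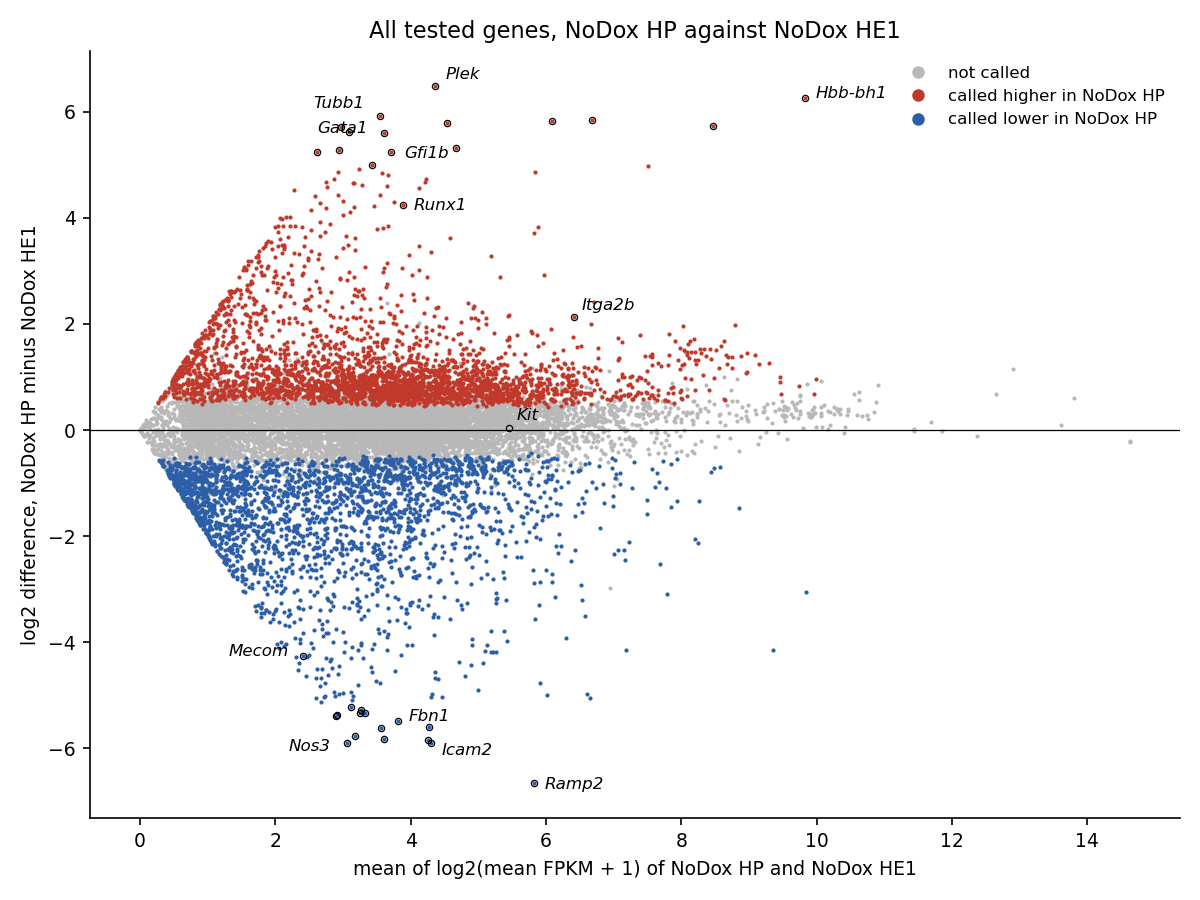
Difference between NoDox HP and NoDox HE1 on the log2(FPKM + 1) scale (vertical axis) against the mean log2(FPKM + 1) of both groups (horizontal axis) for the 13316 genes tested, with called genes coloured and selected genes named. Called genes lie far below 0 more often than far above it, with 636 genes below −2 and 333 above 2.

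Of the surface genes commonly used to sort such populations, the stem cell factor receptor gene Kit did not separate the groups. Kit stood at 48.2 and 38.5 FPKM in HP and 40.5 and 43.6 FPKM in HE1 (0.04 ± 0.28, adjusted p = 0.933). Tek, the gene of the angiopoietin receptor TIE2, stood at 8.51 and 6.63 FPKM in HP and 143 and 164 FPKM in HE1 (−4.17 ± 0.25, adjusted p = 2.25e-07). Itga2b, the gene of the platelet and progenitor integrin CD41, stood at 192 and 157 FPKM in HP and 51.1 and 29.2 FPKM in HE1 (2.14 ± 0.45, adjusted p = 0.00259). Where such genes set the sort, their difference is a property of the gates and no finding. Kdr, the gene of FLK1, on which the starting cells were selected, fell to 30.2 and 28.6 FPKM in HP, against 242 and 322 FPKM in HE1 (−3.20).

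Blood transcription factors rose in 18 of 30 cases along the path, with the largest differences in Gata1, Gfi1b and Spi1. The other members of this list were 5 that fell and 7 that did not pass the test, and the list had a median difference of 1.14 against 0.14 over all genes tested. Runx1 (chromosome 16, 92601466 to 92826074, mm10) stood at 3.56 and 1.41 FPKM in HE1, 29.4 and 36.8 in HE2 and 67.4 and 56.0 in HP. Its HP libraries lay far above both HE1 libraries (4.24 ± 0.57, adjusted p = 0.000101), and the difference was 4.83 within the low class of libraries and 3.64 within the high class. Gata1 (chromosome X, 7959260 to 7976663), the master factor of red cells and megakaryocytes, stood at 1.21 and 0.321 FPKM in HE1, 20.5 and 7.29 in HE2 and 90.2 and 74.9 in HP (5.61 ± 0.46, adjusted p = 1.96e-06). Gfi1b (chromosome 2, 28609450 to 28621982), the repressor of erythroid and megakaryocyte cells, stood at 2.14 and 0.315 FPKM in HE1, 32.5 and 14.7 in HE2 and 86.2 and 66.6 in HP (5.24 ± 0.52, adjusted p = 8.47e-06). For both genes HE1 replicate 1 and HE2 replicate 1 were the higher library of their group, and no HE1 library reached the lowest HE2 library. Spi1, the gene of the myeloid and lymphoid factor PU.1, stood at 0.784 and 0.635 FPKM in HE1, 25.3 and 23.5 in HE2 and 48.2 and 53.3 in HP (4.92 ± 0.27). Klf1, the activator of adult globin genes, stood at 35.1 and 29.4 FPKM in HP and 0.325 and 0.445 FPKM in HE1 (4.58 ± 0.20, adjusted p = 4.53e-08), with 3.40 and 2.83 FPKM in HE2. Myb, needed for definitive progenitors, was at 56.5 and 34.5 FPKM in HE2 and 58.9 and 49.9 FPKM in HP, against 3.96 and 0.568 FPKM in HE1 (4.31 for HP minus HE1). Its libraries of HE2 and HP overlapped.

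Not all members of the blood factor network moved up. The partners Tal1 and Lmo2, which are active in both endothelium and blood, rose by smaller amounts, Tal1 to 118 and 90.2 FPKM in HP, against 29.0 and 25.9 FPKM in HE1 (1.87), and Lmo2 to 80.9 and 74.2 FPKM in HP, against 31.9 and 38.0 FPKM in HE1 (1.13). Gata2, a factor of hemogenic endothelium and stem cells, stood at 8.88 and 9.20 FPKM in HP and 15.1 and 13.7 FPKM in HE1, and the difference did not pass the test. The 5 factors of the list that fell were Mecom, Fli1, Erg, Id1 and Id3. Fli1 and Erg, ETS factors shared by endothelium and stem cells, fell (−0.87 and −2.11). Mecom (chromosome 3, 29951296 to 30509759), the gene whose product EVI1 forms part of the fusion in these cells, stood at 17.0 and 28.3 FPKM in HE1, 6.08 and 13.9 in HE2 and 0.194 and 0.205 in HP (−4.26 ± 0.32, adjusted p = 1.03e-06). Id3 (chromosome 4, 136143822 to 136145392), an inhibitor of E proteins and a target of BMP signalling, stood at 147 and 202 FPKM in HE1, 77.3 and 108 in HE2 and 5.16 and 4.42 in HP (−4.91 ± 0.21, adjusted p = 3.78e-08). Gfi1 was the exception in time: it stood at 3.65 and 2.13 FPKM in HE1, 16.8 and 10.7 in HE2 and 3.15 and 3.03 in HP. Both HE2 libraries of Gfi1 lay above the other 4, while HP and HE1 overlapped (0.10 ± 0.39, adjusted p = 0.863).

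**Figure D2:**
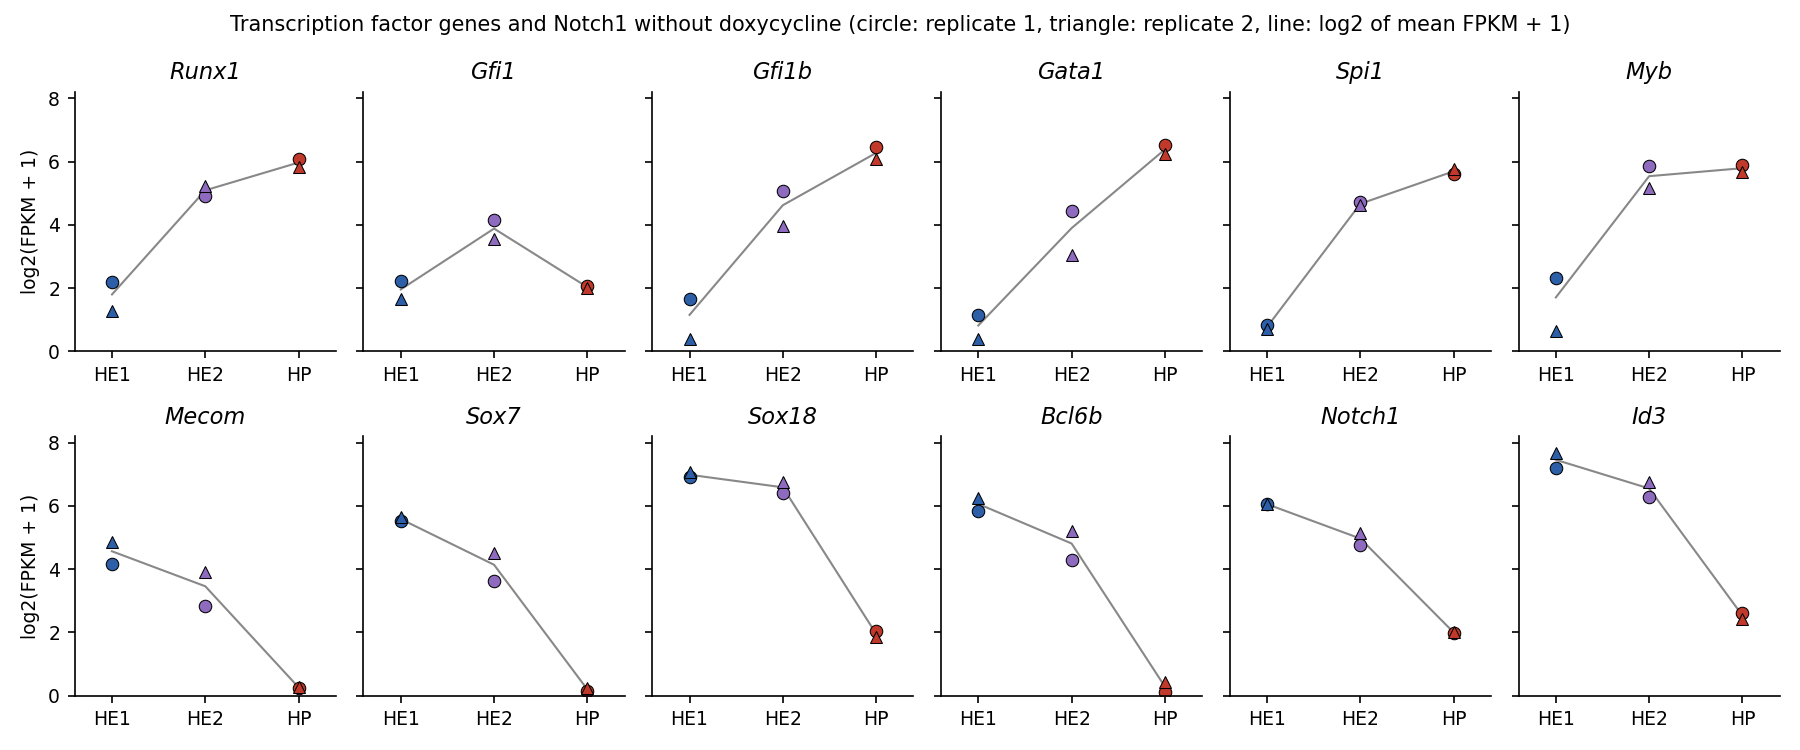
Level of 12 regulators as log2(FPKM + 1) (vertical axis) in NoDox HE1, HE2 and HP (horizontal axis), with a circle for replicate 1, a triangle for replicate 2 and a line through the log2 of each group's mean FPKM + 1. Runx1, Gata1, Gfi1b, Spi1 and Myb climb, Mecom, Sox7, Sox18, Bcl6b, Notch1 and Id3 drop, and Gfi1 is highest in HE2.

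Most endothelial transcription factors fell. Of 31 listed, 14 were under 1 FPKM in both HP libraries and 3 in both HE1 libraries. Of 28 tested members of the list, 22 fell, 2 rose and 4 did not pass, with a median of −1.73. The list holds 27 factors and the apelin receptor gene Aplnr, and the 2 that rose were Tal1 and Mef2c, both also known from blood cells, Mef2c with an adjusted p of 0.0635 without HE1 replicate 1. Bcl6b, a repressor found in endothelial cells, stood at 56.0 and 75.5 FPKM in HE1, 18.4 and 35.7 in HE2 and 0.0895 and 0.351 in HP (−5.77 ± 0.29, adjusted p = 9.42e-08). Sox7 (chromosome 14, 63943706 to 63950732) stood at 45.0 and 48.9 FPKM in HE1, 11.2 and 22.0 in HE2 and 0.109 and 0.185 in HP (−5.39 ± 0.31, adjusted p = 1.78e-07). Both genes were still well expressed in HE2 and nearly absent only in HP. Sox18 stood at 119 and 132 FPKM in HE1, 84.1 and 106 in HE2 and 3.14 and 2.61 in HP (−5.03 ± 0.21, adjusted p = 3.78e-08). Sox17, the third of these SOX factors and one of arterial cells, was less abundant, at 0 and 0.0499 FPKM in HP and 7.92 and 13.2 FPKM in HE1 (−3.46). Epas1, the hypoxia factor of endothelial cells, fell by 4.51, and the flow-responsive factors Klf4 and Klf2 fell too (−3.55 and −2.86). Klf4 stood at 0.524 and 0.450 FPKM in HP and 13.3 and 20.3 FPKM in HE1.

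The promoters of the transcription factors at both ends of this shift are shown because the results turn on these genes. They are the 250 bases before the start of the first RefSeq entry, on GRCm38.p6 (mm10) and printed in the direction of transcription, for the 3 largest rises and the 3 largest falls among the called factors named from the haematopoietic and endothelial factor lists that have an entry. Capitals mark the motifs searched, apart from the E-box. Gata1 lies at chrX:7967911-7968160 (minus strand), Gfi1b at chr2:28621983-28622232 (minus), Klf1 at chr8:84901732-84901981 (plus), Id3 at chr4:136143572-136143821 (plus), Mecom at chr3:30509760-30510009 (minus) and Klf4 at chr4:55532476-55532725 (minus).
Gata1: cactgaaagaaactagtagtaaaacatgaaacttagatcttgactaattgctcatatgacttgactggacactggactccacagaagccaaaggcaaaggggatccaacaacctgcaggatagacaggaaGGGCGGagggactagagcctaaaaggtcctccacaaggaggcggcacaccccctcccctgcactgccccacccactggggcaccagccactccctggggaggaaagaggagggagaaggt
Gfi1b: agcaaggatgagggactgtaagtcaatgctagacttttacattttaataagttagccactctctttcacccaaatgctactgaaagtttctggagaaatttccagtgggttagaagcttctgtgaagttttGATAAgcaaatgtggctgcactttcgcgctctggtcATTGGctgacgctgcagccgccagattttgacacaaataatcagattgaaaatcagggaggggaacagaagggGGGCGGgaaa
Klf1: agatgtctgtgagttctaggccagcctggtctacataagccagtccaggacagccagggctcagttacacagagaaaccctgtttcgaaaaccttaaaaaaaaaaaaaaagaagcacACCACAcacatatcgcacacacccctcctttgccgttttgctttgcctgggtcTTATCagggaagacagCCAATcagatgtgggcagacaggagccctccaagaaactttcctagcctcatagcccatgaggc
Id3: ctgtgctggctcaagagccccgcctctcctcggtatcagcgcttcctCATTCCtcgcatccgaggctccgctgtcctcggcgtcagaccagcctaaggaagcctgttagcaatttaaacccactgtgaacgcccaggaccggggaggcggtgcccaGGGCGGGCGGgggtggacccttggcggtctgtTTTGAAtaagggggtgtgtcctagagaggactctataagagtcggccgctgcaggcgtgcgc
Mecom: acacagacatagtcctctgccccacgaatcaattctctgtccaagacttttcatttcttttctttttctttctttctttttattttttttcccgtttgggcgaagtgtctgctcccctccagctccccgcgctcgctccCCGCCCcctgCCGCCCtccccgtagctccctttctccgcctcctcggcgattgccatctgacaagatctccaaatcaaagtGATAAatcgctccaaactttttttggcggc
Klf4: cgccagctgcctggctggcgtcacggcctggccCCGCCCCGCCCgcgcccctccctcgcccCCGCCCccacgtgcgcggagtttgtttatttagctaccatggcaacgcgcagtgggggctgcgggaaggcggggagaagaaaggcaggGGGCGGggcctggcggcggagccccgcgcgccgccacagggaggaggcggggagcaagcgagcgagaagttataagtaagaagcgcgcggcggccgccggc

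Among the 3 genes that rose, the Gfi1b window held GATAA 119 bases before the start, a CCAAT on the other strand at 83 and a GGGCGG at 10. In the Klf1 window TGTGGT was found on the other strand at 133, GATAA on the other strand at 80 and CCAAT at 64. The Gata1 window held a single GGGCGG at 120. Among the 3 genes that fell, the Id3 window held GGAATG on the other strand at 203, overlapping GGGCGG copies at 94 and 90 and TTTGAA at 62. The Mecom window held GGGCGG on the other strand at 111 and 101 and GATAA at 30. The Klf4 window held 4 copies of GGGCGG, on the other strand at 217, 212 and 189 and on the printed strand at 101. These matches describe letters in a window and are not binding sites.

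Over all promoters of genes tested the same letters were counted on both strands, with matches of different motifs counted apart even where they overlap. A promoter entry was found for 9683 of the genes tested (72.7%). GATAA, the core of GATA sites, occurred in 29.4% of 235 promoters of genes higher by more than 2, in 14.5% of 433 lower by more than 2 and in 14.6% of all tested. TGTGGT, the core of RUNX sites, occurred in 16.6%, 11.5% and 10.7% of the same sets. CCGGAA, the core of ETS sites, occurred in 8.51% and 10.9% of the promoters with large rises and large falls, against 23.0% of all tested. Over all called genes, whatever the size, CCGGAA was found in 26.5% of 2178 promoters of genes higher and 12.2% of 1766 of genes lower. GATAA was found in 15.6% and 13% of these wider sets and TGTGGT in 11.5% and 10.2%. GGGCGG, the GC box of SP and KLF factors, occurred in 47.2% with large rises, 63.0% with large falls and 59.7% of all tested. GGAATG, the TEAD motif, was found in 8.09% with large rises, 11.8% with large falls and 10.5% of all tested. CCAAT occurred in 24.7% with large rises, 29.3% with large falls and 36.5% of all tested, and TTTGAA, the CHR element of cell cycle genes, in 12.8%, 7.85% and 10.4%. The SOX core ACAAT was found in 20.9%, 16.9% and 17.7% and the E-box CANNTG in 70.2%, 55.4% and 56.6% of the same sets. The AP-1 site TGANTCA was found in 5.96%, 4.62% and 4.16% and the TATA box TATAAA in 8.94%, 9.01% and 5.96%. The sets were chosen by the calls themselves, so these shares are a description. The base composition differed along with these shares, with a median GC content of 56.4% in the promoters with large rises, 62.0% in those with large falls and 60.0% over all tested, and its part in the shares was not tested.

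The surface and junction genes of endothelium fell almost without exception. Of 43 tested, 40 fell, Vwf rose, and Gja1 and Cd34 did not pass the test, with a median of −3.79. Their summed FPKM was 491 and 476 in HP, against 4058 and 5535 in HE1, with 2165 and 3403 in HE2. Ramp2, the co-receptor for the vessel-stabilising peptide adrenomedullin, stood at 518 and 617 FPKM in HE1, 175 and 249 in HE2 and 5.00 and 4.28 in HP (−6.65 ± 0.22, adjusted p = 1.91e-08). Among the genes named for size it was the largest fall. Nos3, the endothelial nitric oxide synthase, stood at 58.0 and 68.8 FPKM in HE1, 8.43 and 13.2 in HE2 and 0.0578 and 0.0880 in HP (−5.90 ± 0.27, adjusted p = 5.07e-08). Icam2, an adhesion molecule of resting endothelium, stood at 124 and 179 FPKM in HE1, 42.9 and 80.7 in HE2 and 1.26 and 1.81 in HP (−5.89 ± 0.27). In each of these genes every HE2 library lay between HE1 and HP. Cdh5, whose product VE-cadherin joins endothelial cells, fell by 5.00, and Cldn5 of the tight junctions stood at 0.369 and 0.364 FPKM in HP and 26.5 and 65.0 FPKM in HE1 (−4.96). Pecam1, which blood cells also express, kept 67.6 and 52.1 FPKM in HP, against 265 and 406 FPKM in HE1 (−2.45). Cd34, shared by endothelium and progenitors, stood at 130 and 148 FPKM in HP and 114 and 204 FPKM in HE1, and Vwf, a clotting factor of endothelium and platelets, at 4.24 and 6.66 FPKM in HP and 1.03 and 1.48 FPKM in HE1 (1.50).

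Other genes among the largest falls also have roles in vessels or their surroundings. Acvrl1, the gene of the endothelial BMP receptor ALK1, stood at 0.481 and 0.826 FPKM in HP and 62.4 and 103 FPKM in HE1 (−5.63). Cd93, a C-type lectin-like receptor of endothelium, stood at 1.57 and 1.86 FPKM in HP and 102 and 169 FPKM in HE1 (−5.60). Ptprb, the gene of the phosphatase VE-PTP that acts on VE-cadherin and TIE2, stood at 0.606 and 0.395 FPKM in HP and 58.5 and 60.8 FPKM in HE1 (−5.34). The list of largest falls was not made of receptors only. Gap43, best known as a growth cone protein of neurons, stood at 0.672 and 2.51 FPKM in HP and 117 and 161 FPKM in HE1 (−5.84). Acer2, an alkaline ceramidase, stood at 0.677 and 0.561 FPKM in HP and 84.9 and 97.3 FPKM in HE1 (−5.83), and the fibrillin gene Fbn1 at 1.11 and 1.07 FPKM in HP and 101 and 85.9 FPKM in HE1 (−5.49). Arhgef15, an endothelial exchange factor for small GTPases, Mmrn2, a matrix protein bound by CD93, and Gimap4 fell as well (−5.36, −5.10 and −5.34).

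Notch and arterial genes fell or did not pass, and none rose. Of 22 tested, 17 fell, with a median of −2.43, and Notch2, Jag1, Cxcr4, Bmx and Rbpj did not pass the test. Notch1, the receptor needed for arterial identity and for definitive hemogenic endothelium, stood at 65.1 and 65.7 FPKM in HE1, 26.1 and 34.4 in HE2 and 2.99 and 3.0 in HP (−4.05 ± 0.24, adjusted p = 2.3e-07). Notch4, an endothelial receptor, stood at 0.323 and 0.678 FPKM in HP and 22.9 and 35.2 FPKM in HE1 (−4.30). The arterial ligand Dll4 was at 2.93 and 5.98 FPKM in HE1 and listed at 0 in both HP libraries. The arterial genes Efnb2, Unc5b and Gja4, an ephrin, a netrin receptor and a connexin, also fell (−3.59, −4.12 and −3.47). Guidance genes, which steer axons and vessels, fell in 24 of 27 tested, with a median of −2.50. Robo4, an endothelial roundabout receptor, stood at 0.127 and 0.0692 FPKM in HP and 21.3 and 56.2 FPKM in HE1 (−5.03), and Nrp2, a co-receptor of VEGF and semaphorins, fell by 4.36. The 2 guidance genes that rose were Efnb1 (0.79) and Epha4 (0.67), and both calls ended without HE1 replicate 1 (adjusted p = 0.0998 and 0.153) or without HP replicate 2 (0.0544 and 0.0774), that of Epha4 also without HP replicate 1 (0.098).

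Genes of the matrix that surrounds and underlies vessels were far lower in HP. Of 42 collagen, laminin and other matrix genes tested, 34 fell, 6 did not pass and Emilin2 and Thbs1 rose, with a median of −1.96 and a summed FPKM of 592 and 609 in HP and 2894 and 3794 in HE1. Col4a1, a chain of basement membrane collagen, stood at 15.6 and 16.7 FPKM in HP and 439 and 666 FPKM in HE1 (−4.99 ± 0.25, adjusted p = 1.01e-07). Its partner chain Col4a2 stood at 8.93 and 12.0 FPKM in HP and 263 and 367 FPKM in HE1 (−4.78). Hspg2, the gene of perlecan, stood at 8.30 and 7.15 FPKM in HP and 157 and 157 FPKM in HE1 (−4.18). The exceptions encode proteins also made by blood cells. Thbs1, the thrombospondin of platelets, was at 117 and 173 FPKM in HP and 31.0 and 71.8 FPKM in HE1 (1.57; adjusted p = 0.0738 without HE1 replicate 1 and 0.0568 without HP replicate 2), and Emilin2 at 16.0 and 17.3 FPKM in HP and 0.259 and 0.186 FPKM in HE1 (3.85).

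Adhesion genes exchanged members. Of 38 integrin and focal adhesion genes tested, 22 fell, 8 rose and 8 did not pass, with a median of −0.75. Itgb3, whose product pairs with CD41 on platelets, stood at 9.24 and 9.86 FPKM in HE1, 203 and 202 in HE2 and 304 and 309 in HP (4.87 ± 0.19, adjusted p = 3.62e-08). Fermt3, the kindlin that activates integrins in blood cells, stood at 210 and 204 FPKM in HP and 23.5 and 7.86 FPKM in HE1 (3.82). Itgb2, the common chain of the leukocyte integrins, stood at 16.0 and 17.8 FPKM in HP and 0.858 and 0.397 FPKM in HE1 (3.47). The members that fell included the collagen and laminin receptor chains Itga1 and Itga3 and the actin linker Parva (−4.0, −3.21 and −3.35). Target genes of YAP and TEAD, which respond to spreading and tension in cells, fell in 20 of 25 tested and rose in none, with a median of −2.14. Amotl1, a YAP-binding protein and target, stood at 0.631 and 0.637 FPKM in HP and 30.2 and 40.0 FPKM in HE1 (−4.45). Ctgf, a matricellular target, stood at 1.95 and 5.07 FPKM in HP and 18.1 and 45.6 FPKM in HE1 (−2.82), and the factor genes Tead2 and Tead4 fell (−3.15 and −2.93). Of 11 caveolar and endocytic genes tested, 7 fell, among them Cav1, the coat protein of caveolae, with 0.201 and 0.618 FPKM in HP and 16.8 and 53.4 FPKM in HE1 (−4.48 ± 0.72, adjusted p = 0.000406). Without HP replicate 1 that count was 4.

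Genes of BMP and TGF-beta signalling, which patterns blood-forming mesoderm and vessels, were lower in HP. Of 32 genes tested 21 fell, 10 did not pass and Tgfb1 rose, with a median of −1.40. Eng, the co-receptor endoglin, stood at 12.0 and 8.47 FPKM in HP and 140 and 166 FPKM in HE1 (−3.79). Bmp6, a ligand, stood at 0.108 and 0.260 FPKM in HP and 29.1 and 36.2 FPKM in HE1 (−4.83), and the receptor gene Acvr1 and the ligand Bmp2 fell (−2.67 and −2.22). Tgfb1, a ligand stored by platelets, stood at 82.6 and 67.4 FPKM in HP and 24.4 and 23.8 FPKM in HE1 (1.59). Of 29 Wnt genes tested 16 fell and 2 rose, Wnt2 and Lgr5, and the call of Lgr5 ended without any 1 of the 4 HP and HE1 libraries (adjusted p = 0.0835 to 0.184). The Wnt inhibitor Apcdd1, the repressor Tcf7l1 and the enhancer of Wnt signals Rspo3 fell (−3.76, −2.81 and −2.45).

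Haemoglobin genes had the largest median log2 difference among the lists. Of 9 globin genes tested, 8 rose and Hbq1a did not pass, with a median of 5.73. Their summed FPKM was 11439 and 14556 in HP (2.06% and 2.72% of the library sum), against 208 and 204 in HE1 (0.0429% and 0.0436%), with 1588 and 1868 in HE2. Hbb-bh1, a beta-like globin of primitive red cells, stood at 126 and 81.5 FPKM in HE1, 981 and 863 in HE2 and 7459 and 8221 in HP (6.26 ± 0.28, adjusted p = 5.07e-08). Hba-x, the embryonic alpha-like globin, stood at 2097 and 3067 FPKM in HP and 38.8 and 56.1 FPKM in HE1 (5.73), and Hbb-y, the other embryonic beta-like gene, at 720 and 1327 FPKM in HP and 22.5 and 40.4 FPKM in HE1 (4.97). The embryonic genes held most of the globin signal, yet the adult ones rose by like amounts. The adult gene Hbb-bs stood at 135 and 211 FPKM in HP and 1.65 and 2.53 FPKM in HE1 (5.80), and Hbb-bt at 48.5 and 73.1 FPKM in HP and 0.859 and 0.927 FPKM in HE1 (5.00). Hba-a1 and Hba-a2 are near-identical copies whose reads may be split either way. Hba-a1 read 589 and 989 FPKM in HP and 10.8 and 13.9 FPKM in HE1, and Hba-a2 383 and 658 FPKM in HP and 6.99 and 8.72 FPKM in HE1.

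The machinery around haemoglobin rose with it. Of 21 genes of haem synthesis and iron uptake, 16 rose, 4 did not pass and Hmox1, the enzyme that breaks haem down, fell (−2.02), with a median of 1.72. Alas2, the first enzyme of haem synthesis in red cells, stood at 38.5 and 44.5 FPKM in HP and 2.22 and 1.88 FPKM in HE1 (3.80 ± 0.22, adjusted p = 2.2e-07). Tfrc, the transferrin receptor, stood at 110 and 114 FPKM in HP and 12.4 and 9.16 FPKM in HE1 (3.27). Fech, the enzyme that inserts the iron, rose by 2.22. All 27 tested genes of the red cell membrane and the erythroid programme were called, 25 higher and 2 lower, with a median of 2.51. Sptb, the spectrin of the red cell skeleton, stood at 34.8 and 33.8 FPKM in HP and 0.819 and 0.478 FPKM in HE1 (4.43), and the erythroid co-activator Cited4 rose by 4.84. The 2 that fell are also made outside red cells: the water channel Aqp1 stood at 0.151 and 0.242 FPKM in HP and 25.0 and 34.7 FPKM in HE1 (−4.67), and Cd24a at 26.5 and 42.3 FPKM in HP and 74.0 and 84.7 FPKM in HE1 (−1.22; adjusted p = 0.0604 without HE1 replicate 2 and 0.098 without HP replicate 1).

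**Figure D3:**
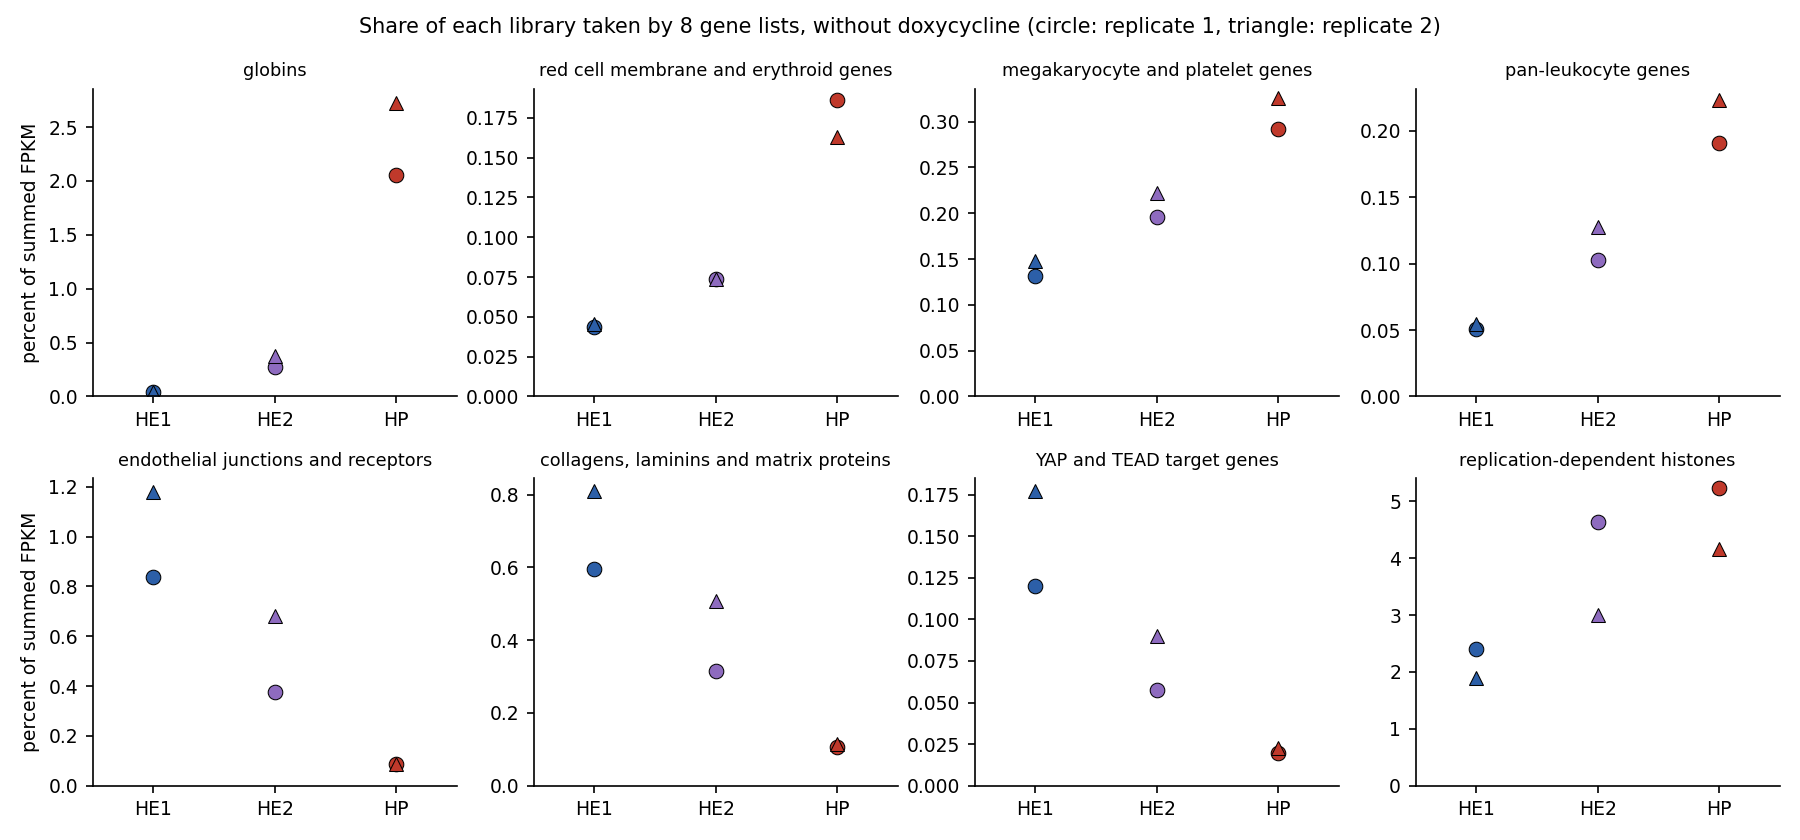
Summed FPKM of 8 gene lists as a percentage of the library's FPKM sum (vertical axes, linear and from 0) in NoDox HE1, HE2 and HP, with a circle for replicate 1 and a triangle for replicate 2. Globins reach 2.06% and 2.72% in HP against 0.0429% and 0.0436% in HE1, and endothelial junction and receptor genes 0.0883% and 0.0890% in HP against 0.837% and 1.18% in HE1.

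Megakaryocyte and platelet genes rose as broadly. Of 32 tested, 28 rose, 3 did not pass and the thrombin receptor gene F2r fell (−0.72; adjusted p = 0.0588 without HE1 replicate 2 and 0.0699 without HP replicate 2), with a median of 2.29. Plek, the platelet kinase substrate pleckstrin, stood at 1.22 and 1.08 FPKM in HE1, 36.5 and 64.8 in HE2 and 163 and 228 in HP (6.49 ± 0.26, adjusted p = 3.62e-08). It was the largest rise among the genes named for size that were above 0 in every library of both groups. Tubb1, the beta-tubulin of the platelet rim, stood at 0.592 and 0.405 FPKM in HE1, 4.54 and 4.80 in HE2 and 75.9 and 106 in HP (5.92 ± 0.22, adjusted p = 3.37e-08). Pf4, a chemokine of platelet granules, stood at 0.215 and 0.318 FPKM in HE1, 0.664 and 0.657 in HE2 and 18.1 and 37.0 in HP (4.41). Pf4 stayed low through HE2 (0.39 for HE2 minus HE1, limma adjusted p = 0.46), while Tubb1 had already risen in part (1.92, adjusted p = 0.000382). The ATP-gated channel gene P2rx1 rose by 4.57.

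General leukocyte genes rose in nearly all members tested. Of 31 tested, 29 rose and Lcp1 and Gmfg did not pass, with a median of 2.32. In both HE1 libraries 21 of the 35 genes in the files were under 1 FPKM, and such genes passed the filter only through other groups. Coro1a, an actin-binding coronin of blood cells, stood at 27.9 and 42.0 FPKM in HP and 0.649 and 0.894 FPKM in HE1 (4.32 ± 0.32, adjusted p = 9.38e-07). Cd52, a small surface glycoprotein of leukocytes, stood at 16.8 and 28.6 FPKM in HP and was listed at 0 in both HE1 libraries. Kctd12, a channel auxiliary protein also found in blood progenitors, was likewise listed at 0 in HE1 and stood at 22.3 and 29.5 FPKM in HE2 and 35.5 and 38.3 FPKM in HP. Adgrg1, the gene of the stem cell surface receptor GPR56, stood at 4.77 and 1.61 FPKM in HE1, 125 and 75.6 in HE2 and 175 and 135 in HP (5.32 ± 0.52). Most of this rise lay before HE2, whose libraries were both under those of HP. Surface genes linked to stem cells as a list did not move one way: of 22 tested 9 rose, 8 fell and 5 did not pass. Its median of 0.07 was −0.01 with quantile normalization, −0.09 after rescaling without the 3 features and −0.10 without HE1 replicate 1.

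Myeloid genes rose from low levels. Of 26 tested, 21 rose, 3 did not pass and Ltc4s and Anxa3 fell, with a median of 2.51, while 14 of the 40 listed did not pass the filter on low values. In both HE1 libraries 27 of the 40 were under 1 FPKM, and such genes passed the filter only through other groups. Tyrobp, the signalling adaptor DAP12, stood at 39.3 and 53.5 FPKM in HP and 0 and 0.465 FPKM in HE1 (5.28 ± 0.28, adjusted p = 1.41e-07). Mpo, the peroxidase of early granulocytes, stood at 1.26 and 0.433 FPKM in HE1, 16.9 and 14.1 in HE2 and 25.0 and 26.3 in HP (3.89). Lyz2, the lysozyme of macrophages and granulocytes, stood at 15.6 and 24.8 FPKM in HP and 0.841 and 0.259 FPKM in HE1 (3.77). Ncf1, an oxidase subunit of phagocytes, and Csf2rb, a receptor chain for IL-3 and GM-CSF, rose by 4.03 and 3.80. Ltc4s, which makes a leukotriene, stood at 4.40 and 3.11 FPKM in HP and 43.0 and 52.5 FPKM in HE1 (−3.36), and Anxa3 at 11.2 and 14.8 FPKM in HP and 52.2 and 93.1 FPKM in HE1 (−2.35). Of the macrophage list, 5 of 16 genes were tested and 4 rose, among them Csf1r at 3.16 and 5.08 FPKM in HP and 0.217 and 0.163 FPKM in HE1. In both HE1 libraries 15 of the 16 were under 1 FPKM, so the filter largely set the direction of those tested. The mannose receptor gene Mrc1, shared by macrophages and some endothelium, fell to 0.133 and 0.134 FPKM in HP, against 14.3 and 8.69 FPKM in HE1 (−3.42).

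Chemokine genes moved both ways. Of 23 cytokine, chemokine and receptor genes tested, 8 rose, 8 fell and 7 did not pass. Ccl3, which draws in leukocytes, stood at 45.7 and 66.7 FPKM in HP and 0 and 0.144 FPKM in HE1 (5.72 ± 0.34, adjusted p = 2.48e-07). Ccl9, a related chemokine of the mouse, stood at 44.5 and 74.5 FPKM in HP and 0.0876 and 0.313 FPKM in HE1 (5.62 ± 0.32, adjusted p = 1.78e-07), and Ccl4 at 3.58 and 7.03 FPKM in HP with both HE1 libraries listed at 0. Ccr2, the receptor of CCL2, rose (2.56) while Ccl2 itself fell (−2.53), with Ccl2 at 1.38 and 5.79 FPKM in HP and 11.5 and 42.5 FPKM in HE1. The call of Ccl2 ended without HE1 replicate 2 (adjusted p = 0.238) or HP replicate 1 (0.223). Growth factors that act on blood cells also fell, Csf1 (−2.74) and the KIT ligand gene Kitl to 0.226 and 0.215 FPKM in HP, against 4.29 and 6.51 FPKM in HE1 (−2.37).

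Genes of DNA replication and division rose by small, even amounts. Of 45 replication genes tested 36 rose and none fell, with a median of 0.88, and of 38 mitosis genes 24 rose and none fell, with a median of 0.71. Ccne1, the cyclin of the start of S phase, stood at 28.8 and 22.1 FPKM in HP and 9.60 and 6.94 FPKM in HE1 (1.52 ± 0.25, adjusted p = 0.000415). Tk1, a thymidine kinase of S phase, stood at 87.2 and 79.9 FPKM in HP and 35.1 and 25.8 FPKM in HE1 (1.44). Hmmr, a spindle protein, stood at 50.4 and 47.4 FPKM in HP and 20.7 and 17.7 FPKM in HE1 (1.31), and Cdc25b, a phosphatase that starts mitosis, rose by 1.92. Replication-dependent histone genes, read here in total RNA and near-identical within families, rose in 46 of 50, with a median of 1.38. Their summed share was 5.24% and 4.16% in HP and 2.40% and 1.90% in HE1, and the linker histone gene Hist1h1a stood at 955 and 793 FPKM in HP and 278 and 174 FPKM in HE1 (1.98 ± 0.37). These counts rest on single libraries more than those above. Without HE1 replicate 2 they were 21 replication, 13 mitosis and 14 histone genes, and without HP replicate 1 they were 17, 11 and 12, with the median difference of each list still above 0. Without the filter on low values 27 histone genes rose.

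Regulators of the G1 phase changed kind. Of 15 CDK inhibitors, D cyclins and partners tested, 7 rose, 3 fell and 5 did not pass, while 4 rose without HE1 replicate 1 and 5 fell with quantile normalization or the class term. Ccnd1, the D cyclin of adherent cells, stood at 1.94 and 2.48 FPKM in HP and 33.4 and 56.2 FPKM in HE1 (−3.79 ± 0.31, adjusted p = 2.09e-06). Ccnd2 and Cdk6, the cyclin and kinase typical of blood progenitors, rose by 1.23 and 1.32. Cdkn1c, the inhibitor p57 of quiescent cells and itself an imprinted gene, fell by 1.62. The inhibitor gene Cdkn2d and Rb1 of the same list went the other way and rose by 1.10 and 1.22.

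Genes of growth and energy metabolism gave counts that moved with the settings. Of 39 genes of ribosome biogenesis 25 rose and none fell, with a median of 0.86, and Nop10, a part of the pseudouridylation complex, stood at 145 and 113 FPKM in HP and 44.1 and 43.8 FPKM in HE1 (1.52). That count was 14 without HE1 replicate 1, 8 without HE1 replicate 2 and 6 without HP replicate 1. Of 79 ribosomal protein genes 3 rose and none fell, with a median of 0.36, which became −0.02 with quantile normalization. The 3 rises were 24 with the class term, 15 with median scaling, 14 after rescaling without Lars2, Mir6236 and LOC101056014, 6 without the intensity trend, 1 without HE1 replicate 1 and 0 without HE1 replicate 2 or HP replicate 1. Respiratory chain subunits rose in 17 of 56, with a median of 0.40, and in 1, 8 and 0 of them without HE1 replicate 1, HE1 replicate 2 or HP replicate 1. With the class term 35 respiratory chain genes rose, and 27 with median scaling. Of 24 glycolysis genes 7 rose, or 11 with the class term and 4 without HE1 replicate 2 or HP replicate 1, while the glucose transporter gene Slc2a1 fell to 48.4 and 40.4 FPKM in HP, against 82.4 and 95.2 FPKM in HE1. The share of glycolysis genes called in either direction was 33.3%, below the 40.6% of all genes tested.

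Stress and inflammatory genes gave mixed calls. Of 28 interferon-inducible genes tested 2 rose, 2 fell and 24 did not pass, and the list's median of 0.32 was −0.40 within the low class of libraries and 1.13 within the high class, and −0.21 without HE1 replicate 1. Without HE1 replicate 2 or HP replicate 1 it held 7 or 5 rises, with the class term 4, and in a fit to the 4 NoDox HP and HE1 libraries alone 8 rises and 3 falls. One member stood out: Ifitm1, a membrane protein also known from early embryonic cells, was at 48.5 and 45.0 FPKM in HP and 2.60 and 2.09 FPKM in HE1 (3.84 ± 0.45, adjusted p = 3.35e-05). Of 18 integrated stress response genes tested 9 rose and Ddit4 fell, with a median of 0.88. Cebpb, a factor of myeloid cells and of this response, stood at 1.57 and 2.03 FPKM in HE1, 36.3 and 26.3 in HE2 and 31.3 and 25.4 in HP (3.39), already at its HP level in HE2. Of 22 p53 targets 3 rose and 7 fell, with Perp, a desmosome protein, at 76.5 and 89.1 FPKM in HP and 5.26 and 6.46 FPKM in HE1 (3.61). The 3 rises were 1 without HE1 replicate 1. The 7 falls were 11 after rescaling, 4 without HE1 replicate 1 and 3 without HE1 replicate 2 or HP replicate 2. Of 21 immediate early genes 9 fell and 3 rose, and Atf3 was among the falls (−2.59), as were Klf4 (−3.55) and Klf2 (−2.86). Of 22 sterol synthesis genes 1 rose and 5 fell, with 1, 1 and 0 falls without HE1 replicate 1, HE1 replicate 2 or HP replicate 2, 2 without the filter on low values and 8 after rescaling. Of 17 BCL2 family genes 5 rose and 2 fell, with 2 rises without HE1 replicate 1, 3 without HP replicate 2 and 5 falls after rescaling. The shares called were 45.5% of the p53 targets, 41.2% of the BCL2 family and 27.3% of the sterol genes, near or under the 40.6% of all genes.

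Hox genes and factors of lateral mesoderm fell in most members tested. Of 32 Hox genes 14 were tested, of which 12 fell and Hoxd1 rose, with a median of −1.94. In both HP libraries 30 of the 32 were under 1 FPKM, so the filter largely set the direction of those tested. The call of Hoxd1 ended without either HE1 library (adjusted p = 0.0501 and 0.178) or HP replicate 1 (0.175). Hoxb4, known for its effect on blood stem cells, stood at 0.828 and 0.923 FPKM in HP and 11.6 and 8.92 FPKM in HE1 (−2.58), and Hoxb2 at 0.552 and 0 FPKM in HP and 18.9 and 12.2 FPKM in HE1 (−3.70). Hoxb5, Hoxb6 and Hoxb9 were above 0 in HE1 and listed at 0 in both HP libraries. Of 12 cardiac and lateral mesoderm genes tested 7 fell and Tnni1 and, as given above, Mef2c rose. Hand2, a heart and limb factor, stood at 1.25 and 0.433 FPKM in HP and 27.0 and 22.1 FPKM in HE1 (−3.82), and Gata4 at 1.05 and 0.461 FPKM in HP and 27.4 and 17.9 FPKM in HE1 (−3.74). Markers of smooth muscle and mesenchyme also fell in most members tested. Smooth muscle genes fell in 12 of 19, or 6 without HE1 replicate 2, and rose in 2, Des and Pdgfrb. Among those that fell, Acta2, the smooth muscle actin, stood at 18.7 and 34.5 FPKM in HP and 67.5 and 115 FPKM in HE1 (−1.75; adjusted p = 0.122 without HE1 replicate 2 and 0.132 without HP replicate 1). Mesenchymal genes fell in 6 of 9 and rose in 1, again Pdgfrb, a receptor for platelet-derived growth factor, at 4.19 and 3.08 FPKM in HP and 0.970 and 1.09 FPKM in HE1 (1.18 ± 0.27, adjusted p = 0.00437). Des and Pdgfrb were chosen for naming after their values were seen. Vim, the intermediate filament gene of endothelial and mesenchymal cells, stood at 2097 and 3240 FPKM in HE1, 1280 and 1836 in HE2 and 326 and 300 in HP (−3.05). Of 7 epithelial genes tested 2 fell and none rose, and their summed FPKM was 33.9 and 48.4 in HP and 55.1 and 56.1 in HE1.

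**Figure D4:**
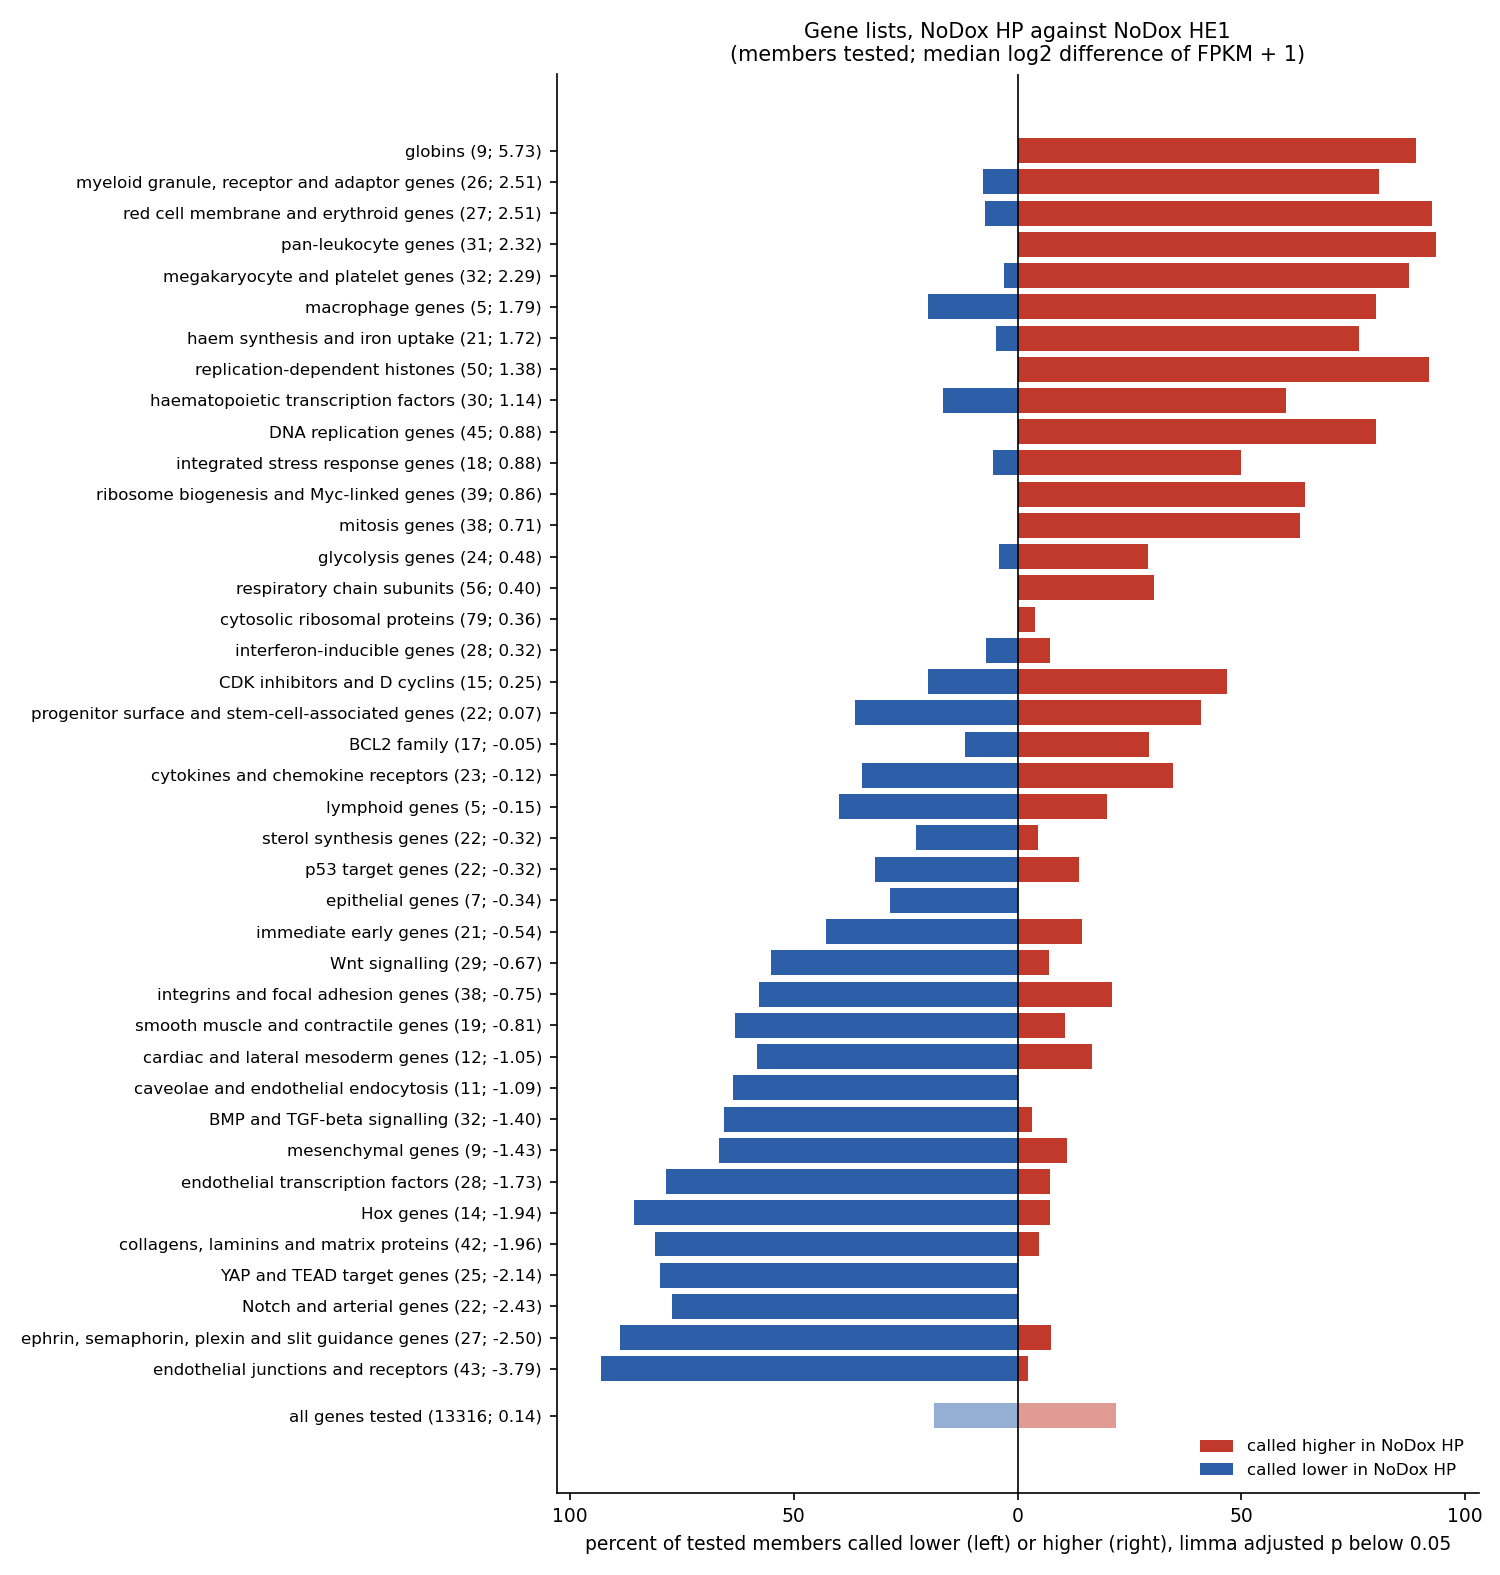
Percentage of the tested members of each gene list with 5 or more tested members called higher (right of 0) and lower (left of 0) in NoDox HP than in NoDox HE1, with the share of all 13316 tested genes, 22.0% higher and 18.6% lower, for comparison. Globin, red cell, megakaryocyte, leukocyte and myeloid lists lie mostly to the right and vessel, matrix and guidance lists mostly to the left. Haematopoietic transcription factors (18 higher, 5 lower), progenitor surface genes (9 and 8), cytokines and chemokine receptors (8 and 8) and lymphoid genes (1 and 2) lie on both sides. Ribosomal protein genes are nearly empty on both sides.

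HE2 was set against the midpoint of HE1 and HP on the log2(FPKM + 1) scale. Both HE2 libraries were of the low class, with 0.591% and 0.587% of the summed FPKM in Lars2, Mir6236 and LOC101056014, whereas HE1 and HP each held 1 library of either class. Of 13316 genes tested, 142 had an HE2 level off the midpoint of HE1 and HP (1.07%; limma adjusted p below 0.05), 123 above it (0.924%) and 19 below it (0.143%), and 1493 had an unadjusted p below 0.05. The median gene tested lay 0.119 above the midpoint. With quantile normalization that median was −0.003, with 93 calls above and 47 below, and with median scaling −0.017, with 123 and 50. After rescaling it was −0.005, with 42 and 10, and with the class term 0.022, with 69 and 11. For 90 of the 142 the HE2 mean still lay between those of HE1 and HP, so that the gene moved early or late on this scale. Among the genes already described, Sox18 lay 2.11 ± 0.18 above the midpoint, Ptprb 1.91 ± 0.20, Ramp2 1.89 ± 0.19, Itgb3 1.83 ± 0.17 and Cebpb 1.82 ± 0.20. The first 3 of these fall along the path, with more of the log2 difference between HE2 and HP, and the other 2 rise, with more of it between HE1 and HE2. In FPKM the order can differ: Ramp2 averaged 568 in HE1, 212 in HE2 and 4.64 in HP, so that most of its loss in FPKM came before HE2. Pf4 lay at −1.81 ± 0.28 and Tubb1 at −1.04 ± 0.19 against the midpoint, the opposite case of a late rise. The count of 142 was 80 with the class term, 11 without HE2 replicate 2, 43 without HP replicate 2, 58 and 70 without HE1 replicate 1 or 2, and 90 without HP replicate 1. The call of Pf4 ended without either HE2 library (adjusted p = 0.0556 and 0.114), and that of Tubb1 without any of the 6 but HP replicate 1 (0.0565 to 0.166). The call of Pf4 also ended without the filter on low values (0.103) and after rescaling (0.062). That of Tubb1 also ended without the filter (0.0996), with quantile normalization (0.0671), after rescaling (0.0975) and with a pseudocount of 0.1, where it stood at −0.61 (0.367).

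In 37 of the 142 genes both HE2 libraries lay above all 4 libraries of HE1 and HP, and in 4 they lay below. These counts cover genes already called. How often such an order occurs over all 13316 genes tested was not counted, so the counts only describe the calls. Lyve1, a hyaluronan receptor of lymphatic and yolk sac endothelium, stood at 6.96 and 8.66 FPKM in HE1, 27.1 and 46.3 in HE2 and 2.97 and 2.12 in HP (2.71 ± 0.32 against the midpoint, adjusted p = 0.00324). Gfi1, given above, was the only transcription factor among the 6 largest peaks (1.87 ± 0.34, adjusted p = 0.0272). Cyp26b1, which degrades retinoic acid, stood at 1.39 and 0.397 FPKM in HE1, 8.93 and 5.89 in HE2 and 2.88 and 1.50 in HP (1.80 ± 0.36, adjusted p = 0.0374). Igfbp5, which binds insulin-like growth factors, stood at 2.14 and 2.71 FPKM in HE1, 11.4 and 6.60 in HE2 and 1.38 and 0.823 in HP (1.87). The other named peaks were the potassium channel gene Kcnk9 (1.63) and the ADP receptor gene P2ry1 (1.50), the second with 4.66 and 3.27 FPKM in HE1, 24.5 and 27.5 in HE2 and 16.6 and 18.4 in HP. The 4 dips were Slc44a1, Bmp2k, Zmym1 and Arfgap3, a choline transporter, a kinase, a zinc finger protein and a regulator of Golgi traffic. Slc44a1 stood at 5.73 and 8.08 FPKM in HE1, 3.62 and 5.67 in HE2 and 16.1 and 15.4 in HP (−1.04 ± 0.21), with HE2 replicate 2 just under HE1 replicate 1. Leaving out 1 library bore on these calls. Those of Cyp26b1 and Slc44a1 ended without any 1 of the 6 libraries, that of Gfi1 without any but HE1 replicate 1, and those of Lyve1, Kcnk9 and P2ry1 without HE2 replicate 2 (adjusted p = 0.0637, 0.0786 and 0.122). Other settings ended some of them too. The call of Gfi1 ended without the filter on low values (adjusted p = 0.154), with quantile normalization (0.0527), after rescaling (0.0582) and with the class term (0.0869). That of Cyp26b1 ended under these 4, with median scaling and with a pseudocount of 0.1 (0.05 to 0.19), and that of Slc44a1 without the filter, after rescaling, with the class term and in the fit to the contrast groups alone (0.0535 to 0.133). Igfbp5 and P2ry1 lost theirs without the filter (0.0594 and 0.0739).

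The same path was also run with the RUNX1-EVI1 gene induced for 18 hours, in libraries that share no sample with the NoDox path. With doxycycline 5150 genes were called between PlusDox HP and PlusDox HE1 (38.7%), 2974 higher (22.3%) and 2176 lower (16.3%). The 2 sets of differences had a Pearson r of 0.924 across the genes tested, which are not independent. Of the 5409 NoDox calls 5328 (98.5%) had the same sign with doxycycline, and 4155 were called in both, which is 76.8% of the NoDox calls and 80.7% of the PlusDox calls. Both sets of calls came from 1 fit with 1 shared spread per gene, so their overlap is not that of independent tests. The share of all genes tested with the same sign was not counted. Some list medians kept their sign and rough size: endothelial junctions and receptors stood at −3.17 with doxycycline and −3.79 without, globins at 5.91 and 5.73, and haematopoietic transcription factors at 1.51 and 1.14. Others did not: progenitor surface and stem-cell-associated genes stood at 0.55 with doxycycline and 0.07 without, and lymphoid genes (5 tested) at −0.82 and −0.15. Visceral endoderm and hepatic genes (3 tested) stood at 0.53 and −0.85.

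The difference between the paths was itself tested, and 5 genes were called (0.0375%; limma adjusted p below 0.05), 3 with a difference higher with doxycycline (0.0225%) and 2 lower (0.0150%), while 869 had an unadjusted p below 0.05. All 5 had an adjusted p of 0.048, and 4 meet the naming rule. Ramp2 stood at 17.8 and 17.7 FPKM in PlusDox HP and 405 and 312 FPKM in PlusDox HE1, a fall of smaller size than without doxycycline (−4.25 ± 0.22 with, −6.65 without, change 2.40 ± 0.31). Rhag, the Rh-associated glycoprotein of the red cell membrane, stood at 6.23 and 6.44 FPKM in PlusDox HP and 0.0435 and 0.120 FPKM in PlusDox HE1, against 1.05 and 0.654 FPKM in NoDox HP and 0.0440 and 0.0703 FPKM in NoDox HE1 (change 1.96 ± 0.26). The other pair had a lower difference with doxycycline, and of these only Mall was lower in HP than in HE1 along both paths. Zfp185, an actin-binding LIM protein, stood at 1.00 and 0.846 FPKM in PlusDox HP and 11.1 and 6.78 FPKM in PlusDox HE1, against 3.50 and 1.95 FPKM in NoDox HP and 2.13 and 1.44 FPKM in NoDox HE1 (change −2.73 ± 0.38). Mall, a membrane protein of the MAL family, stood at 0.215 and 0.253 FPKM in PlusDox HP and 11.6 and 7.08 FPKM in PlusDox HE1, and was listed at 0 in both NoDox HP libraries with 0.641 and 0.986 FPKM in NoDox HE1 (change −2.18 ± 0.32). These calls rest on few libraries: 0 genes were called without any single one of 7 of the 8 libraries, 3 without PlusDox HE1 replicate 2 and 0 after rescaling without Lars2, Mir6236 and LOC101056014. Mecom, part of the fusion, differed by −1.76 ± 0.32 between HP and HE1 with doxycycline and −4.26 without, and the change did not pass the test (2.50 ± 0.45, adjusted p = 0.102). It passed with a pseudocount of 0.1 (4.28, adjusted p = 0.012) and in a fit to the 8 HP and HE1 libraries alone (adjusted p = 0.0487). Mall and Rhag did not pass with that pseudocount (adjusted p = 0.797 and 0.252). Mall, Rhag and Zfp185 did not pass with the class term (adjusted p = 0.068 for each) or in the fit to 8 libraries (0.0502 to 0.0555), and Mall, Ramp2 and Zfp185 did not pass without the filter on low values (0.0517 to 0.0903).

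**Figure D5:**
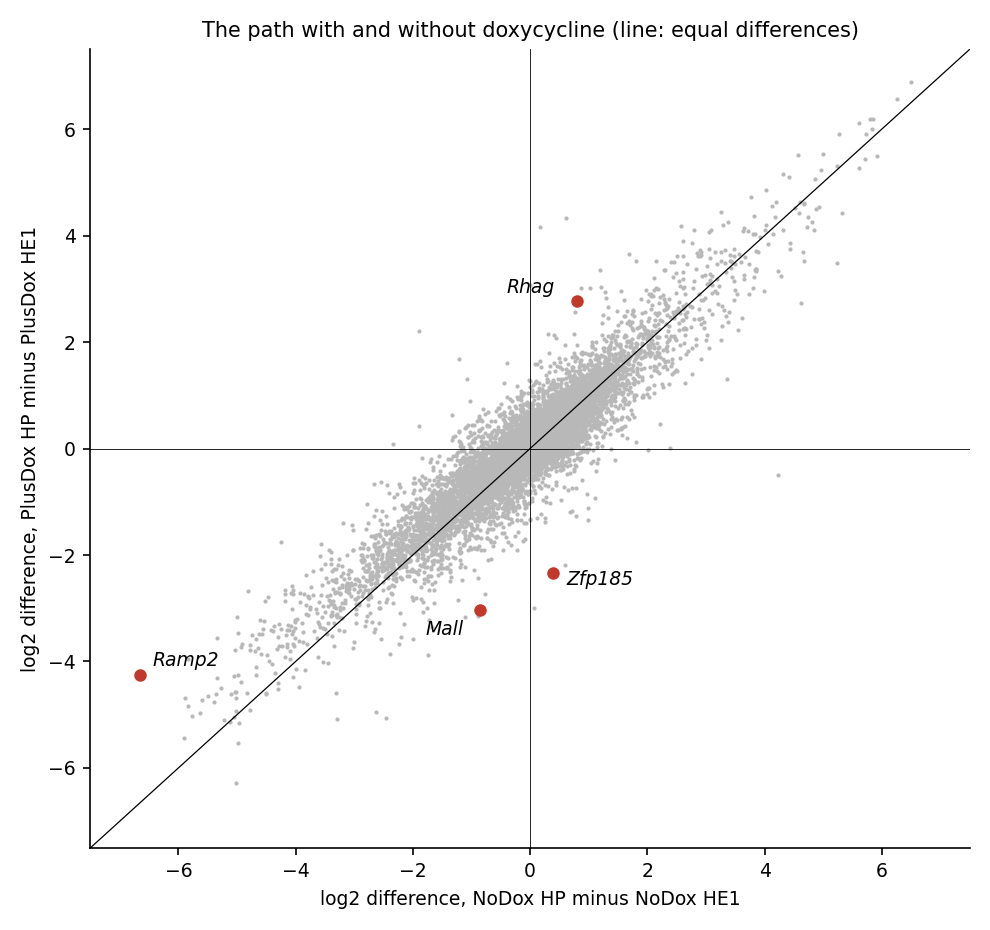
Difference between HP and HE1 on the log2(FPKM + 1) scale with doxycycline (vertical axis) against that without (horizontal axis) for 13316 genes, with the 4 named genes whose difference changed marked and the diagonal drawn. The points follow the diagonal with r of 0.924 across genes.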

How the data were processed

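Total RNA of sorted cells was sequenced as stranded, paired-end libraries in 1 pool, per the labels. The submitters' processing notes name Trimmomatic 0.32, HISAT2 2.1.0, StringTie 1.3.3 and mm10. No source used here names the annotation or how strand was handled, so genes that overlap or have an antisense partner cannot be told apart with certainty. The deposited values were read as FPKM made by the authors, an inference from the StringTie note, from values that are not whole numbers and from sums that differ between libraries. Values of the 2 to 4 repeated names per library were added, which gave 35976 names.

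The test covered 13316 genes that reached 1 FPKM in 2 or more of the 12 libraries and left out 22660. A gene under 1 FPKM in both libraries of a group passed only through other groups, which limits the direction in which it could be called. On log2(FPKM + 1), limma 3.58.1 (R 4.3.3) fitted a mean for each of the 6 groups, with the trend option of its empirical Bayes step (6 residual degrees of freedom, prior 5.83), with Benjamini-Hochberg adjustment over all genes tested. P-values thus rest on the spread between 2 replicates pooled over 6 groups. The labels call the replicates biological and do not describe them further. The fit was checked on simulated data. The contrasts were HP minus HE1, HE2 minus the midpoint of both, and the change of HP minus HE1 with doxycycline.

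Members and lists were chosen with earlier results of these data known. The named genes were Runx1, Mecom, Gfi1, Gfi1b, Kit, Tek and Itga2b, the 15 largest rises and falls among called genes with non-overlapping groups and a mean of at least 5 FPKM in one group, and up to 6 called members of each of 45 lists. For the other contrasts the 6 largest in each direction were taken. Predicted and small RNA genes were counted and not named (496 of the calls). Further genes were named after their values were seen, as exceptions to list counts (Vwf, Thbs1, Emilin2, Tgfb1, Hoxd1, Hmox1, F2r, Ltc4s, Anxa3, Cd24a, Efnb1, Epha4, Mef2c) or as well-known members (Tal1, Lmo2, Gata2, Fli1, Erg, Cdh5, Pecam1, Cldn5, Cd34, Ptprc, Dll4, Hbb-y, Kitl). Coordinates and promoters came from RefSeq on GRCm38.p6, in which 32501 names were found. Python 3.11.15 with pandas 2.3.3, numpy 2.4.6 and matplotlib 3.10.9 did the rest. Alternatives were a pseudocount of 0.1, 2 other filters, 3 other scalings, a term for libraries in which Lars2, Mir6236 and LOC101056014 take over 5% of the sum, no trend, a replicate block, fewer groups in the fit and each library left out.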

Additional observations from a re-analysis of the deposited data

Results flagged for a closer look

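The genes Ramp2, Rhag, Mall and Zfp185 drew attention because the difference between HP and HE1 was not of 1 size with and without doxycycline, by the test of that change (limma, adjusted p = 0.048 for each). The change was 2.40 for Ramp2 and 1.96 for Rhag, and −2.18 for Mall and −2.73 for Zfp185. Ramp2 fell with both, by 4.25 with doxycycline and by 6.65 without. Rhag and Zfp185 were low without doxycycline in all libraries, at no more than 3.50 FPKM, and both PlusDox HP libraries of Rhag and both PlusDox HE1 libraries of Zfp185 stood above all NoDox libraries of the same genes. The calls of Ramp2 and Rhag ended without any 1 of the 8 HP and HE1 libraries, and those of Mall and Zfp185 without any 1 but PlusDox HE1 replicate 2. The causes were not tested.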

How the results depend on the processing

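Genes called between HP and HE1 numbered 5409, and 5380 to 6800 in the 10 alternative fits that kept every HP and HE1 library. Without 1 library they numbered 3503 to 4320, the lowest without HE1 replicate 2. The split between directions, 54.1% higher, was 45.9% higher after rescaling without Lars2, Mir6236 and LOC101056014, and 41.9% without HP replicate 1. The signs of the genes called held under the alternative scalings, the only alternatives that could have changed them. Kit and Gfi1, which were not called, changed sign: Kit, at 0.04, was −0.07 with quantile normalization, −0.12 after rescaling and −0.12 to 0.20 without 1 library (−0.02 without HE1 replicate 1), and Gfi1, at 0.10, was −0.02 after rescaling and −0.19 to 0.38 without 1 library.

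The midpoint count of 142 was 38 without the filter on low values, 52 after rescaling, 80 with the class term and 11 to 104 without 1 library. The count of 5 for the change with doxycycline was 20 without the filter, 9 with the filter on both libraries of a group, 14 with quantile normalization, 11 with median scaling, 0 after rescaling, 1 with the class term and 0 to 3 without 1 library. Of 40 list medians, 21 moved by more than the replicate spread in at least 1 alternative. The causes were not tested, apart from the fewer samples in the fits that leave one out.

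Replicate numbers do not pair the samples by any label. Deviations of same-numbered libraries correlated between −0.1 and 0.526, over 0.1 in 12 of 15 pairs of groups and at −0.00805 between NoDox HE1 and NoDox HP. With the replicate block the counts were 6621 genes between HP and HE1, 509 off the midpoint and 54 for the change with doxycycline, and no named gene lost its call between HP and HE1. The change of Mecom with doxycycline passed with the block (2.50, adjusted p = 0.034). With the block the lists held 18 rises of ribosomal protein genes, 13 of glycolysis genes, 11 rises and 6 falls of interferon-inducible genes, 11 falls of p53 targets and 5 falls of G1 regulators. The files hold no read counts, so that depth could be compared between libraries only and no counting error is given.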

Other observations

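Imprinted genes, listed after their values were seen and therefore not tested as a list, were mostly lower in HP. Of 28 listed, 27 passed the filter, 21 fell, none rose and 6 did not pass the test, with a median difference of −1.62, against 0.14 over all genes tested. Peg3, a zinc finger gene expressed from the paternal copy, stood at 499 and 653 FPKM in HE1, 103 and 226 in HE2 and 13.7 and 19.3 in HP (−5.05 ± 0.35). Mest stood at 159 and 149 FPKM in HP and 2499 and 2985 FPKM in HE1 (−4.14). The neighbours Igf2 and H19, a growth factor gene and a non-coding RNA expressed from opposite parental copies, both fell: Igf2 stood at 32.8 and 34.5 FPKM in HP and 642 and 580 FPKM in HE1 (−4.14), and H19 at 25.3 and 13.6 FPKM in HP and 331 and 266 FPKM in HE1 (−3.93). The maternal non-coding RNA Meg3 stood at 1.28 and 1.18 FPKM in HP and 63.2 and 57.4 FPKM in HE1 (−4.78), and its neighbour Rian at 2.96 and 3.37 FPKM in HP and 105 and 107 FPKM in HE1 (−4.69). Gnas, Snrpn and Grb10 were among the 6 that did not pass.

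Some gene families exchanged members, and these too were named after their values were seen. Of 12 tubulin genes tested 5 rose, 4 fell and 3 did not pass. Tuba4a, an alpha-tubulin of platelets among other cells, stood at 40.5 and 47.9 FPKM in HP and 0.832 and 0.722 FPKM in HE1 (4.66), while Tuba1a stood at 204 and 179 FPKM in HP and 448 and 520 FPKM in HE1 (−1.33) and Tubb6 fell by 1.15. Among regulators of G protein signalling, Rgs10 stood at 60.1 and 72.7 FPKM in HP and 1.59 and 1.20 FPKM in HE1 (4.81), Rgs18 at 6.53 and 9.91 FPKM in HP with both HE1 libraries listed at 0, and Rgs3 at 1.38 and 2.47 FPKM in HP and 24.6 and 40.3 FPKM in HE1 (−3.50). All 6 tested genes of the Gimap family, GTPases best known from lymphocytes, fell.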
